A study of Mus musculus with 3 samples.

Results

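The genes described here encode the inhibitors of cyclin-dependent kinases (CDKs) and the retinoblastoma family, the proteins that hold a cell at the gate between rest and DNA replication. The 10 genes were chosen by name: Cdkn1a, Cdkn1b and Cdkn1c of the CIP/KIP family, Cdkn2a, Cdkn2b, Cdkn2c and Cdkn2d of the INK4 family, and Rb1, Rbl1 and Rbl2, whose products are called pocket proteins. Of these, 9 had a probe set annotated to a single gene, among 19938 such genes in all. The probe set that lists Cdkn1a also lists 4930567H12Rik, so Cdkn1a is not analysed here.

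The samples were 3 arrays of haematopoietic stem cells sorted from the bone marrow of wild-type C57Bl/6 mice aged 6 to 10 weeks. The sorted cells lacked lineage markers, CD48 and CD41 and carried c-Kit, Sca-1 and CD150 (the KLS SLAM population). All 3 arrays belong to this group, which has neither a mutation nor a treatment in its labels, and each array is named by the replicate number of its sample. The labels do not say whether the arrays came from separate animals or pools, so the spread between them may be partly technical.

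INK4 proteins bind CDK4 and CDK6 and keep D-type cyclins off them, while CIP/KIP proteins bind cyclin-CDK complexes as a whole, above all those of CDK2. When these kinases are inactive, the pocket proteins stay unphosphorylated and hold E2F transcription factors, which keeps the genes of DNA replication off. Blood stem cells spend most of their time out of cycle, and loss of p57 (Cdkn1c), or of all pocket proteins together, is known to push them into division.

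Values are log2 intensities per probe set, averaged where a gene had several. A probe set has its own affinity, so levels were compared between arrays and never between genes. In the absence of detection calls in the table used here, a gene was called above the background range when it passed, on every array, the 95th percentile of 1233 olfactory, vomeronasal and taste receptor genes, which blood cells are not expected to use. These limits were 6.29, 5.98 and 5.77 log2 on arrays 1, 2 and 3. The arrays had Pearson correlations of 0.940 to 0.951 with each other across genes, which are not independent replicates. Of the genes the sort selected for, Kit and Slamf1 (CD150) were above the range. Of those it selected against, Itga2b (CD41) was above the range too, at 6.51, 6.36 and 6.24 log2, while Cd48, at 4.61, 5.62 and 6.14, passed the limit on array 3 alone. Of the stem cell markers 9 of 9 measured were above it.

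Signal above the background range was found for 5 of the 9 measured genes, namely Cdkn1b and Cdkn1c of the CIP/KIP family, Cdkn2b of the INK4 family, and the pocket protein genes Rb1 and Rbl2. Among all genes, 36.8% were above it. By family the counts were 2 of 2 for CIP/KIP, 1 of 4 for INK4 and 2 of 3 for the pocket proteins. Cdkn1b and Rbl2 cleared the limit by over 1.5 log2 on every array, and these 2 genes also passed the 99th percentile of the receptor genes on every array. Rb1 and Cdkn2b passed the 95th percentile narrowly on at least 1 array, so their calls hang on where the limit is drawn.

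**Figure D1:**
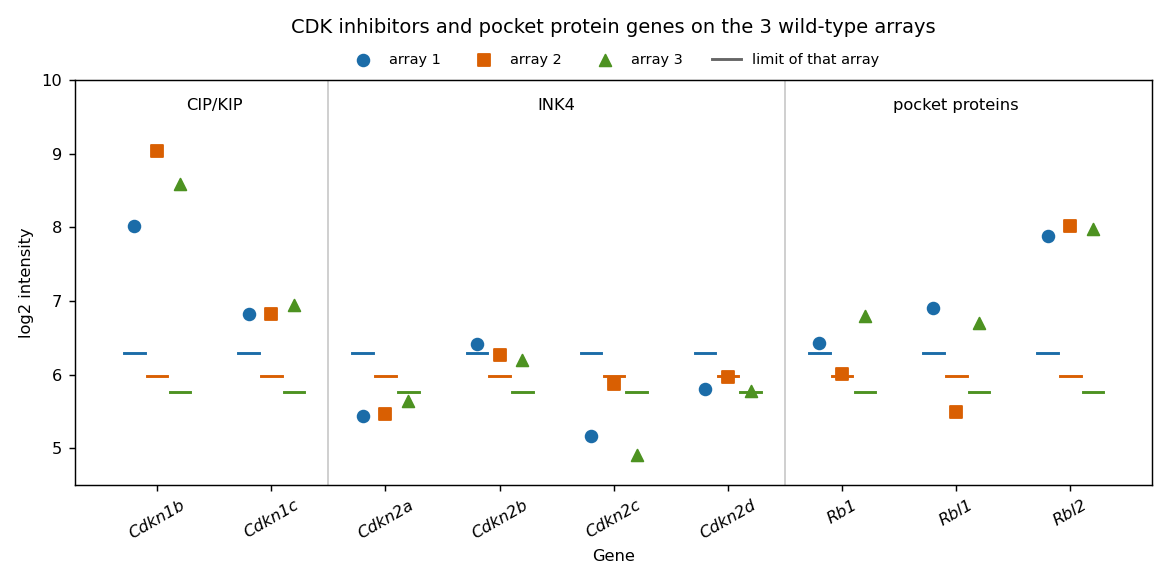
Log2 intensity (vertical axis) of the 9 measured genes (horizontal axis) on array 1 (circles), array 2 (squares) and array 3 (triangles), with short bars for the limit of the background range on the array of the same colour. Cdkn1b and Rbl2 lie far above their limits, Rbl1 drops below its limit on array 2 alone, and Cdkn2a and Cdkn2c lie below it on all 3.

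Cdkn1b encodes p27, which binds cyclin E and cyclin A complexes with CDK2 and is cleared by the SKP2 ubiquitin ligase when cells enter the cycle. Averaged over its 2 probe sets it was at 8.02, 9.03 and 8.58 log2 on arrays 1, 2 and 3, a mean of 8.55 ± 0.51 (SD, n = 3). Array 1 was the lowest and array 2 the highest, with a difference of 1.01 log2 between them, a distance that 4.75% of all genes reached or exceeded on that pair of arrays. The gene stood between 1.72 and 3.06 log2 above the limit.

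The probe sets of Cdkn1b did not follow each other. Probe set 10542310 was at 7.85, 8.63 and 7.24 log2, lowest on array 3. Probe set 10542317 was at 8.18, 9.44 and 9.92, highest on array 3. The difference of the former minus the latter was -0.33, -0.81 and -2.68 log2 on the same arrays, although the annotation ties both to 1 common transcript record. This difference ranged over 2.35 log2 between arrays, against a median of 0.55 for the 777 genes with exactly 2 probe sets, of which 2.70% ranged as far or farther. Among the 404 of those genes whose dimmer probe set was above the mean limit, 3.22% did so. Both probe sets were above the background range on every array, so the call for Cdkn1b rests on neither alone, but the order of the arrays does depend on the probe set.

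**Figure D2:**
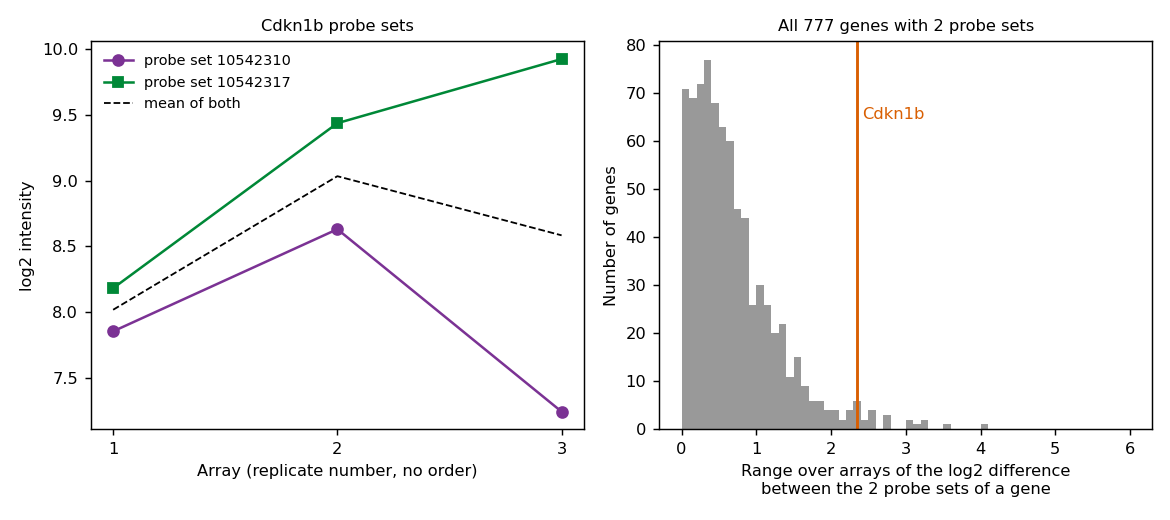
Left, log2 intensity of the 2 Cdkn1b probe sets and their mean (dashed) on each array, where the lines only join values of the same probe set. Right, number of genes by the range over the arrays of the log2 difference between their 2 probe sets, for 777 genes, with the vertical line at the 2.35 log2 of Cdkn1b.

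Cdkn1c encodes p57, the CIP/KIP inhibitor tied most closely to stem cell rest and an imprinted gene expressed from the maternal chromosome. It was at 6.82, 6.82 and 6.94 log2, a mean of 6.86 ± 0.07 (SD, n = 3), and above the limit by 0.53, 0.85 and 1.18 log2. The 3 arrays lay close together, and only 7.48% of all genes had an SD this small or smaller. It did not pass the 99th percentile of the receptor genes on every array.

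Of the INK4 genes, Cdkn2a was below the limit on all 3 arrays. The locus makes p16Ink4a and, from a separate start and another reading frame, p19Arf, which restrains Mdm2 and so protects p53. Its single probe set, 10514340, was at 5.44, 5.46 and 5.65 log2 (5.52 ± 0.12, SD, n = 3), higher than 80.5%, 87.2% and 93.5% of the receptor genes on arrays 1, 2 and 3. Relative to the limits these values were -0.86, -0.52 and -0.12 log2. A value in this range does not show that the transcripts are absent, and 1 value per array cannot separate the transcripts of p16Ink4a and p19Arf. RefSeq places the starts of the Cdkn2a gene 12427 bases apart on the minus strand of chromosome 4 in build GRCm38.p6. The 250 bases before each start are shown because the gene has more than 1 start but a single probe set. Capitals mark a match to an E2F-type word, here TTNNCGC on either strand with only G or C at the N positions, which 7.89% of 32851 RefSeq promoter windows of this length hold.
Cdkn2a upstream start, p19Arf, chr4:89294620-89294869, minus strand: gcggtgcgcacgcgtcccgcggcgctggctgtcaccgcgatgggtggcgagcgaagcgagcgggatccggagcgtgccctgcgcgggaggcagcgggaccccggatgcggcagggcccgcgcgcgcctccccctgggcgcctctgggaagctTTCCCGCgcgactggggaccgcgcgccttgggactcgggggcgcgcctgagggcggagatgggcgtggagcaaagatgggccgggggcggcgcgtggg
Cdkn2a downstream start, p16Ink4a, chr4:89282193-89282442, minus strand: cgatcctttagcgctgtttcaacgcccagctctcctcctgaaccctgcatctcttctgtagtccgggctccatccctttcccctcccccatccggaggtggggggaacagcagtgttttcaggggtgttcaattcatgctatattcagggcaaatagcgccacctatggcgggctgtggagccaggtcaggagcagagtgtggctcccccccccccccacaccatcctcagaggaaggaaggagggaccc
The upstream window held 40 CpG dinucleotides and 1 E2F-type match, 98 to 92 bases before the start. The downstream window held 7 CpG dinucleotides and no match, against a median of 6 CpG dinucleotides over all windows. A match is a string of letters and does not show binding.

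Cdkn2b, the neighbour of Cdkn2a, encodes p15, an inhibitor known to be induced by TGF-beta. It was at 6.42, 6.26 and 6.19 log2 (6.29 ± 0.11, SD, n = 3), which was 0.12, 0.29 and 0.43 above the limits. It was the single INK4 gene above the range on all 3 arrays, while the adjacent Cdkn2a was above it on none.

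Cdkn2c encodes p18, whose loss is known to enlarge the pool of blood stem cells. It was at 5.17, 5.87 and 4.91 log2 (5.32 ± 0.49, SD, n = 3), or -1.13, -0.11 and -0.85 relative to the limits. Array 2 was the highest, 0.95 log2 over array 3, a distance that 5.89% of all genes reached on that pair. Its values all lie in the range of the receptor genes, where an intensity can come from background.

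Cdkn2d encodes the INK4 protein p19, which is unrelated to p19Arf despite the name. It was at 5.81, 5.96 and 5.77 log2 (5.85 ± 0.10, SD, n = 3). Relative to the limits these values were -0.49, -0.01 and 0.01, so the gene passed on array 3 alone. No other measured member lay so close to the limit on more than 1 array.

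Among the pocket proteins, Rbl2 was the steadiest and Rbl1 the most variable. Rbl2 encodes p130, the pocket protein that pairs with E2F4 and the MuvB proteins in resting cells. It was at 7.88, 8.02 and 7.98 log2 (7.96 ± 0.07, SD, n = 3), between 1.58 and 2.21 above the limits. Its SD was at or above that of only 7.75% of all genes.

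Rb1, the retinoblastoma gene, was at 6.43, 6.01 and 6.80 log2 (6.41 ± 0.40, SD, n = 3). It was above the limits by 0.13, 0.03 and 1.03, with array 2 the lowest and array 3 the highest. Between those arrays it differed by 0.79 log2, and 9.12% of all genes differed by as much.

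Rbl1 encodes p107, a pocket protein that, unlike p130, is made mainly in cycling cells and whose gene is itself an E2F target. It was at 6.91, 5.49 and 6.70 log2 (6.37 ± 0.76, SD, n = 3). Array 2 stood apart: there the gene was at -0.48 log2 relative to the limit, while on arrays 1 and 3 it was 0.61 and 0.94 above it. The distance between arrays 1 and 2 was 1.42 log2, which 1.70% of all genes reached, and between arrays 2 and 3 it was 1.21, which 3.00% reached. Arrays 1 and 3 differed by 0.21 log2, less than the median of 0.25 over all genes. Without array 2 the gene was above the range on both remaining arrays and the count of members above it was 6.

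RefSeq start sites were matched for 8 of the 10 genes, with 11 starts, and Cdkn1c and Rb1 were not matched. E2F-type words were found before 3 of the 11 starts, those of Rbl1, of Cdkn2a as shown above, and of Cdkn2c. The windows of Rbl1 and Cdkn2c are shown because Rbl1 had its lowest and Cdkn2c its highest value on the same array. Capitals mark the E2F-type match.
Rbl1, GRCm38.p6 chr2:157204535-157204784, minus strand: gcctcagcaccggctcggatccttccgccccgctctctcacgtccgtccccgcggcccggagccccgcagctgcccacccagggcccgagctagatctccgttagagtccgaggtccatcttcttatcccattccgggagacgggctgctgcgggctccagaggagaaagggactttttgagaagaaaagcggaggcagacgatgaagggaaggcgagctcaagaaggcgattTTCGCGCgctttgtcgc
Cdkn2c upstream start, GRCm38.p6 chr4:109666757-109667006, minus strand: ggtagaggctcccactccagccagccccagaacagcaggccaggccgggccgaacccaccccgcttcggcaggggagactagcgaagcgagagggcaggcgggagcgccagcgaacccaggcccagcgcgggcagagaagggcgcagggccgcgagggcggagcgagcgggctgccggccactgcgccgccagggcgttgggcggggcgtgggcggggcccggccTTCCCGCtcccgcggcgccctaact
In Rbl1 the match lay 17 to 11 bases before the start and in Cdkn2c 25 to 19. The GC-box word GGGCGG, searched on both strands and present in 32.7% of all windows, occurred before 6 of the 11 starts, once for Rbl1 and 3 times for Cdkn2c, and did not overlap the E2F-type matches. The word TTTGAA, the core of the cell cycle homology region that MuvB complexes bind, was found in 16.0% of all windows and before the starts of Cdkn2b and Rbl2.

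Between the arrays, 0 of the 9 genes passed the test for varying more than the trend at their level (limma, one-sided F test of the variance, adjusted over all genes, threshold 0.05). No gene of the 19938 passed this test, so the background share was 0%, and the smallest adjusted p of any gene was 0.744. At an unadjusted p under 0.05 there were 1017 genes, 5.1% of all, and 1 member, Rbl1. Its adjusted p by limma was 0.94, and the smallest adjusted p of any member was 0.698 to 0.996 over the 8 alternatives. With 3 arrays the test has 2 degrees of freedom per gene, and missing its threshold does not show that the arrays were alike. The SDs of the members ran from 0.07 to 0.76 log2 with a median of 0.12, beside a median of 0.22 over all genes, and 5 of 9 members were under that median.

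The SDs of the members fell into separate ranges. Cdkn1c, Rbl2, Cdkn2d, Cdkn2b and Cdkn2a had SDs of 0.07 to 0.12. Rb1, Cdkn2c, Cdkn1b and Rbl1 had SDs of 0.40 to 0.76. Each of the families held at least 1 gene of either kind. Values spanned over 1 log2 for 2 of 9 members, Cdkn1b and Rbl1, beside 10.5% of all genes. Without array 1 this count was 1, namely Rbl1, and without array 2 it was 0.

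**Figure D3:**
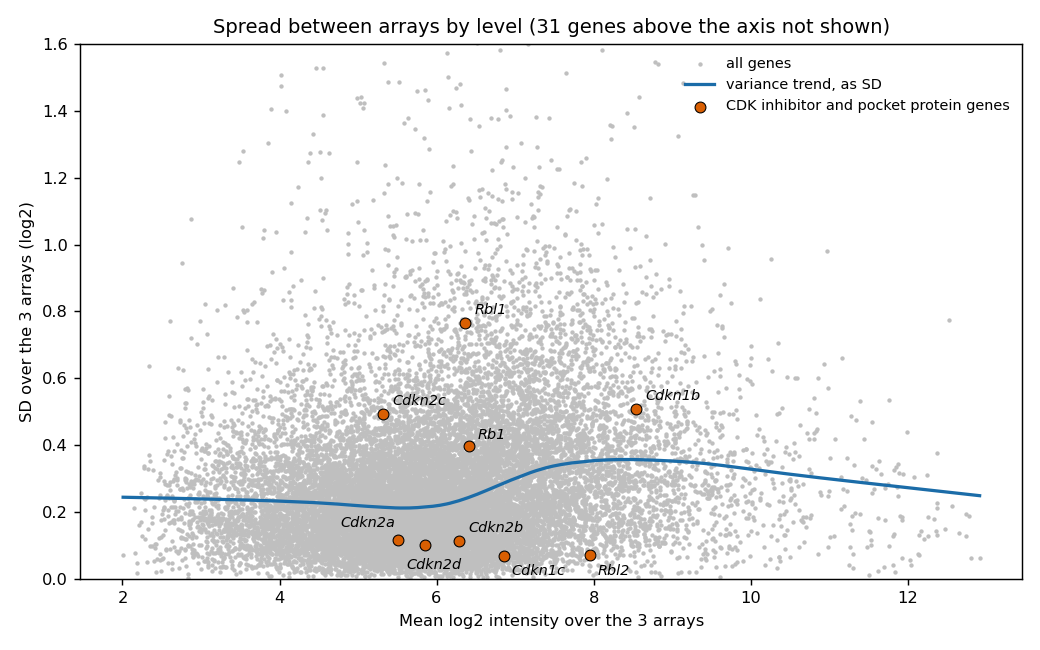
SD over the 3 arrays (log2, vertical axis) against mean log2 intensity (horizontal axis) for all genes (grey), the variance trend used by limma drawn as an SD (line) and the 9 members (orange). Rbl1, Cdkn2c, Rb1 and Cdkn1b lie above the line and the other 5 below it. The 31 genes with an SD over 1.6 are not drawn.

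For the members spanning over 1 log2, the genes most like them were looked up among 99 genes of the pathway, by the root mean square difference of values centred on each gene's own mean over the 3 arrays. Nearest to Rbl1 were Lin9, a MuvB subunit, at 0.18 log2, Ezh2, the Polycomb methyltransferase, at 0.23, and E2f5, at 0.30. Lin9 was at 5.93, 4.40 and 6.04 log2 on arrays 1, 2 and 3. Ezh2 was at 8.77, 7.64 and 9.13. All of them had their lowest value on array 2, as Rbl1 did, but they were picked for likeness to Rbl1, so this is no separate result. Nearest to Cdkn1b, by the mean of its probe sets, were E2f3 at 0.07 log2, the cyclin G1 gene Ccng1 at 0.12 and the ETS factor gene Ets2 at 0.13. E2f3 was at 6.30, 7.28 and 6.69. Like Cdkn1b, E2f3 was averaged over 2 probe sets. Their difference ranged farther over the arrays than the median for genes with exactly 2 probe sets. Whether single probe sets of E2f3 and Cdkn1b are alike was not tested. Over 3 arrays the likeness of all these genes is a description with no test, and for Cdkn1b the order changes with the probe set.

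**Figure D4:**
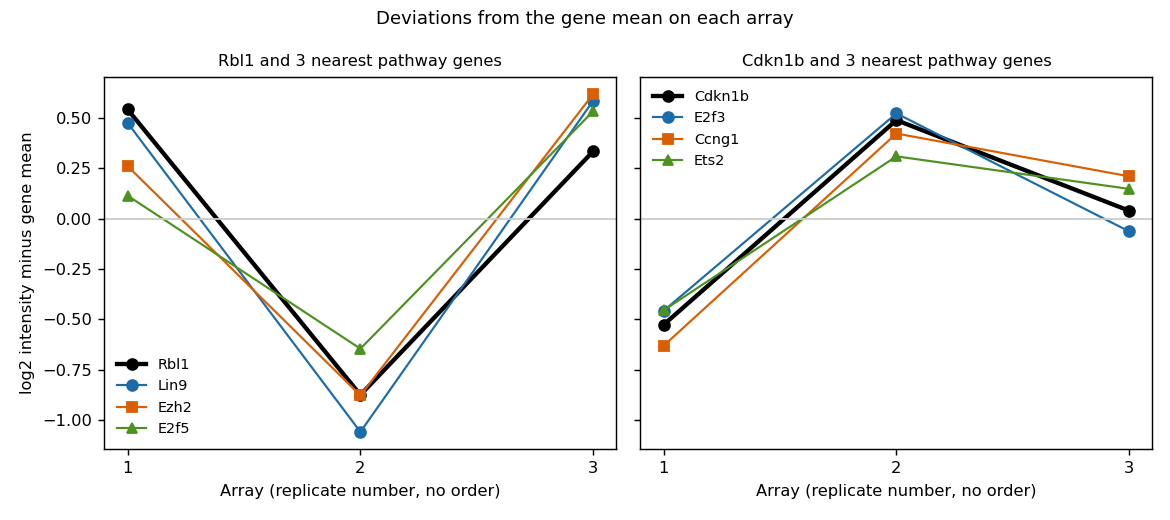
Log2 intensity minus the gene's own mean over the arrays (vertical axis) on each array (horizontal axis, replicate numbers without order) for Rbl1 (left, black) and Cdkn1b (right, black), each with the 3 pathway genes nearest to it. On array 2 Rbl1 and its nearest genes lie below their means, while Cdkn1b and its nearest genes lie above theirs. The nearest genes were picked for this likeness.

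Some chromosomal neighbours differed from the members in their calls. Slc22a18, next to Cdkn1c in the same imprinted domain, was above the background range at 6.94 ± 0.22 log2 (SD, n = 3), while Kcnq1 on the other side was not, at 5.96 ± 0.09. Mtap, on the side of Cdkn2a away from Cdkn2b, was at 6.66, 5.95 and 7.09 log2 and missed the limit on array 2 alone, as Rbl1 did. Dmrta1, beyond Cdkn2b, was below the limit on every array at 4.66 ± 0.20. The phosphohydrolase gene Samhd1, which clears nucleotides outside S phase and neighbours Rbl1, was above the range at 8.66, 9.48 and 9.80 and did not share the low value of Rbl1 on array 2. Of the remaining neighbours, Faf1 next to Cdkn2c, Kri1 next to Cdkn2d, Rcbtb2 and Itm2b around Rb1 and Chd9 next to Rbl2 were above the range. Gpr19 and Apold1 around Cdkn1b, 4930522H14Rik next to Cdkn2c, Ap1m2 next to Cdkn2d, Mroh8 next to Rbl1 and Rpgrip1l next to Rbl2 were not.

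Of the pathway that these inhibitors act in, 71 of 99 measured genes were above the background range, 71.7%, beside 36.8% of all genes. The genes of the INK4 targets CDK4 and CDK6 and of the D-type cyclins were all above it, Ccnd1 by only 0.12 log2 on array 1. Cdk4 and Cdk6 were at 8.84 ± 0.17 and 7.92 ± 0.49 log2 (SD, n = 3), and Ccnd1, Ccnd2 and Ccnd3, the D-type cyclin genes, at 6.49 ± 0.15, 9.67 ± 0.13 and 7.72 ± 0.25. Of the targets of CIP/KIP proteins and their partners, 3 of 7 were above it. Those were Cdk2 at 7.33 ± 0.15, Cdk1 at 6.49 ± 0.27 and Ccnb2 at 7.21 ± 0.32. The cyclin E genes Ccne1 and Ccne2, at 6.00 ± 0.12 and 5.49 ± 0.38, were not, and neither were Ccna2 at 6.10 ± 0.42 and the phosphatase gene Cdc25a at 6.35 ± 0.22.

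The partners of the pocket proteins were above the range in part. Of 10 E2F and DP genes 6 were above the range: the repressor genes E2f4 (6.71 ± 0.21 log2, SD, n = 3), E2f6 (7.10 ± 0.28) and E2f7 (6.88 ± 0.19), the activator gene E2f3 (6.76 ± 0.49), and Tfdp1 (8.11 ± 0.13) and Tfdp2 (8.34 ± 0.23), which encode the DNA-binding partners. E2f1, E2f2, E2f5 and E2f8, at 5.66 ± 0.20, 5.92 ± 0.11, 5.47 ± 0.60 and 5.66 ± 0.23, were not. Of the MuvB core and its partners 4 of 7 were above it, Lin37 at 7.25 ± 0.05, Lin52 at 6.46 ± 0.30, Rbbp4 at 7.63 ± 0.25 and Mybl2 at 6.29 ± 0.45. Lin9 at 5.45 ± 0.92, Lin54 at 6.29 ± 0.15 and Foxm1, the mitotic factor, at 5.81 ± 0.03 were not. E2f3 passed by only 0.003 log2 on array 1 and Mybl2 by 0.03 on array 3, so their calls hang on where the limit is drawn. All 7 measured corepressor genes were above the range, among them the deacetylase genes Hdac1 at 8.91 ± 0.29 and Hdac2 at 10.06 ± 0.49 and the histone methylation regulators Suv39h2 at 6.51 ± 0.26 and Kdm5a at 8.60 ± 0.32.

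Genes that E2F switches on in S phase were above the range in 11 of 15 cases. Pcna, the sliding clamp, was at 10.81 ± 0.44 log2 (SD, n = 3), and the helicase genes Mcm2, Mcm3 and Mcm4 were at 7.16 ± 0.02, 6.88 ± 0.25 and 7.22 ± 0.11. The licensing genes Cdc6, Cdt1 and Orc1, at 5.90 ± 0.69, 5.79 ± 0.12 and 5.21 ± 0.29, and Mcm7, at 6.29 ± 0.70, were not above it.

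Genes acting on the inhibitors themselves were mostly above the range. Of the ubiquitin ligase genes that clear p27 and p21, 7 of 9 were, including Skp2 at 6.42 ± 0.14 log2 (SD, n = 3), Cks1b at 8.71 ± 0.75, Skp1 at 10.00 ± 0.70 and Cul1 at 8.68 ± 0.57, while Dtl at 6.04 ± 0.63 and Rnf123 at 6.25 ± 0.06 were not. Of the activators of CDK inhibitor transcription 8 of 11 were, including Foxo3 at 7.86 ± 0.23, which acts on Cdkn1b, and Smad2, Smad3 and Smad4 at 7.91 ± 0.36, 7.65 ± 0.07 and 8.17 ± 0.16, which act on Cdkn2b. Foxo1 at 6.42 ± 0.17, Foxo4 at 5.57 ± 0.35 and Klf4 at 5.98 ± 0.15 were not. Of the genes listed as repressors of the Cdkn2a locus 10 of 13 were, including the Polycomb genes Bmi1 at 7.56 ± 0.71, Ring1 at 6.85 ± 0.10, Rnf2 at 7.65 ± 0.40 and Cbx2 at 6.96 ± 0.22, while Cbx8 at 6.03 ± 0.05, Eed at 6.10 ± 0.40 and Id1 at 5.94 ± 0.23 were not. The 10 include Mdm2, which p19Arf restrains and which is no repressor of the locus itself. Mdm2 is also counted among the p53 targets below. Cdkn2a itself was below the limit on every array, as given above.

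Genes tied to Cdkn1a or Cdkn1c by a shared regulator or by imprinting were above the range in part. Of the p53 targets that accompany Cdkn1a, 7 of 9 were above the range, including Mdm2 at 7.85 ± 0.23 log2 (SD, n = 3), Ccng1 at 8.98 ± 0.56, Bbc3 at 6.45 ± 0.04 and Gadd45a at 7.48 ± 0.76, while Sesn2 at 5.61 ± 0.11 and Zmat3 at 5.03, 4.99 and 4.97 on the 3 arrays were not. Of the imprinted genes 4 of 7 were, Slc22a18 as given above, Meg3 at 7.23 ± 0.15, Dlk1 at 6.47 ± 0.05 and Grb10 at 7.23 ± 0.05, while Kcnq1, Phlda2 at 6.27 ± 0.39 and Igf2 at 5.95 ± 0.11 were not.

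Rb1 and Rbl1 had their lowest values on array 2. Of the 99 pathway genes 45 had their lowest value on array 2, 45.5%, beside 28.8% of all genes. Among genes above the background range, the shares were 34 of 71 pathway genes, 47.9%, beside 36.7% of all. By list, array 2 was the lowest for 6 of 7 cyclin E, A and B genes with their kinases, for 5 of 7 corepressor genes and for 9 of 15 S phase genes. It was the lowest for 4 of 7 MuvB genes, 3 of 7 imprinted genes, 4 of 10 E2F and DP genes and 2 of 5 D-type cyclin and kinase genes. The counts were 3 of 9 for the ubiquitin ligase genes and 4 of 13 for the Cdkn2a repressor list. Only the p53 targets, with 2 of 9, and the activators, with 3 of 11, had a share under that of all genes. Array 2 was the highest for 2 of 5 D-type cyclin and kinase genes, Ccnd1 and Ccnd3, and for 5 of 15 S phase genes. The cyclin E, A and B list averaged 6.48, 6.20 and 6.60 log2 on arrays 1, 2 and 3, and the S phase list 7.06, 6.91 and 7.12. The members themselves had no common order: 2 of 9 were lowest on array 2 and 4 of 9 were highest on it, beside 38.6% of all genes that were highest there. The differences between lists on array 2 were not tested.

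**Figure D5:**
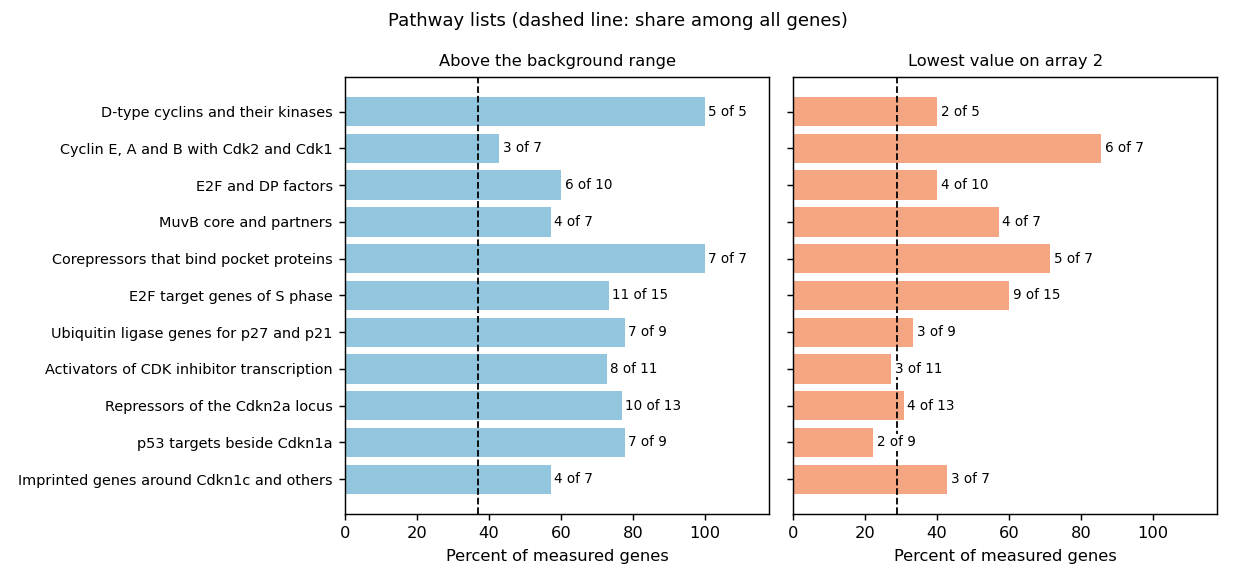
Percent of the measured genes of each pathway list (vertical axis) that passed the limits everywhere (left) and that had their lowest value on array 2 (right), with counts beside the bars and a dashed line at the share among all genes, 36.8% and 28.8%. The D-type cyclin and corepressor lists are wholly above the range, and the cyclin E, A and B list has the highest share of genes lowest on array 2.

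Markers of granulocytes, like Cdkn1b, were mostly lowest on array 1. Of 10 markers 7 were above the range and 9 had their lowest value on array 1, where Cdkn1b was lowest too by the mean of its probe sets, though not by probe set 10542310. Among all genes 34.1% had their lowest value on array 1, and among genes above the range 35.5%. So did 4 of 5 erythroid markers, 4 of 9 stem cell markers and 4 of 9 members, so the trait was not particular to granulocyte markers or Cdkn1b. In the other marker lists the counts were 1 of 5 for megakaryocyte and for B cell markers and 0 of 6 for T and NK cell markers. They were 2 of 6 for monocyte and macrophage markers and 1 of 6 for stroma and endothelium markers. The summed intensity of the granulocyte markers was 9284, 15676 and 14394 on arrays 1, 2 and 3, none of them at 0. Of the defining markers, S100a8 was at 11.73, 12.31 and 12.20 log2 and Ngp at 9.25, 11.14 and 10.40. The sort for cells without lineage markers is meant to remove granulocytes. Whether cells of that lineage contributed to the signal of Cdkn1b was not tested, and fewer cells of a type and less RNA per cell cannot be told apart in such samples. The stem cell markers averaged 8.47, 8.57 and 8.56 log2. Of the erythroid, B cell and T and NK cell markers, 1 of 5, 1 of 5 and 1 of 6 were above the range. Of the megakaryocyte markers 4 of 5 were, and of the monocyte and macrophage markers and the stroma and endothelium markers 2 of 6 each.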

How the data were processed

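Gene expression was measured on 3 single-colour arrays of sorted stem cells, with amplification of the RNA before labelling, per the labels' protocols. Per the submitters' processing notes, the authors used RMA and Affymetrix Expression Console, while a genome build is not given in the sources used. The deposited intensities lay between 2.82 and 18384, which is a linear scale, and their log2 was taken. RMA evens out brightness between arrays that are run together, so array-wide differences are reduced beforehand. The median intensities of all probe sets were 60.4, 58.0 and 56.7 on arrays 1, 2 and 3. The limits of the background range, which come from the receptor genes alone, were 6.29, 5.98 and 5.77 log2 on the same arrays. Genes above the limit of their own array numbered 7840, 9794 and 11016. A margin over the limit can therefore differ between arrays where a gene's own values do not.

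The table held 35554 probe sets, of which 21789 named 1 gene, 1621 several and 12144 were not listed in the platform annotation. Probe sets with 1 gene were used, and log2 values were averaged per gene. Each gene's variance (2 degrees of freedom) was compared with the robust trend of limma 3.58.1 in R 4.3.3. The one-sided F test had 4.34 prior degrees of freedom, with Benjamini-Hochberg adjustment and a threshold of 0.05. A prior run on simulated data only checked that spreads many times the trend are called and that unchanged genes rarely are. It does not show that the test finds spreads as small as those of the members. The number of arrays limits the precision. Promoter sequences come from RefSeq (GRCm38.p6), searched over the 250 bases before each start. Neighbours are the nearest measured protein-coding genes in a RefSeq gene table of GRCm38.p6. Pathway lists held 107 genes, and 2 renamed symbols were matched through that table.

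The members and lists were chosen with earlier results of these data known. The named genes follow a rule: all members, up to 6 genes of each pathway list on either side of the limit or else its first 4 as written, the 3 most alike genes of members that span over 1 log2, and each member's neighbours.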

Additional observations from a re-analysis of the deposited data

How the results depend on the processing

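No paired analysis was possible because all arrays belong to 1 group. With the 99th percentile of the receptor genes as the limit, 2 members (Cdkn1b and Rbl2), 42 pathway genes and 3478 of all genes were above the range, instead of 5, 71 and 7347. Under the other limits, probe set rules and normalizations tried and without single arrays, the members above the range numbered 5 to 6. Rbl1 was the gene added, without array 2 or with the mean over arrays against the mean limit. Under the same settings, 71 to 85 pathway genes and 7350 to 10082 of all genes were above the range. At the 90th percentile the members still numbered 5, while 10082 of 19938 genes were above it. Members spanning over 1 log2 numbered 1 instead of 2 after quantile normalization, when Cdkn1b spanned 0.90 log2, and 0 to 2 without single arrays, while all genes doing so numbered 990 to 1041 without single arrays instead of 2084, since 2 arrays span less than 3. These counts, the 90th percentile, the counts of genes lowest on array 2 and the test of each probe set on its own were alternatives chosen after seeing the data. The test of variation called 0 members and 0 genes under all of its 8 alternatives by limma, with 0 to 2 members and 324 to 1159 genes at an unadjusted p under 0.05. Of 54 alternative levels of single members, 53 stayed within 1 SD, and Cdkn1b was at 9.18 log2 by its brighter probe set against 8.55. Many of the 54 could not have left that range. Dropping 1 of 3 arrays cannot move a mean by 1 SD, and the probe set rule changes only Cdkn1b. The count of 53 is therefore no measure of robustness. Signal near the background limits restricts what can be said of the INK4 genes and Rb1, and of pathway genes close to a limit. On array 1, E2f3 was at 0.003 log2 relative to the limit, and Cdc25a, Lin54 and Foxo1 were at -0.03, -0.06 and -0.07.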
